A study of Mus musculus with 12 samples.

Results

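Regulatory T cells (Treg) made in culture were compared with Treg taken directly from mice, across all expressed genes. The comparison used 6 of the 12 libraries of the series: 3 of induced Treg (iTreg) and 3 of natural Treg (nTreg), chosen by their labels alone. All came from C57BL/6 mice aged 8 weeks that carried 1 floxed and 1 intact allele of Hrd1 together with a Foxp3-driven Cre and GFP, a genotype the labels call WT. Because that Cre acts in every cell that expresses Foxp3, both cell types may have lost 1 copy of Hrd1, a ubiquitin ligase that sits in the membrane of the endoplasmic reticulum (ER), and no group without a floxed allele was compared. Spleen and lymph nodes gave the natural Treg, which were sorted for CD4 and GFP. Induced Treg came from CD4 T cells cultured for 5 days in the presence of TGF-beta and IL-2, after which GFP-positive cells were isolated, so that origin, culture and cytokines cannot be told apart in the comparison. Nothing in the labels says that replicates were separate animals, so p-values here reflect the spread between libraries, which may be technical.

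Treg restrain other immune cells and depend on the transcription factor Foxp3. Those that arise in the thymus are kept stable by an open, demethylated Foxp3 locus and by long-standing programmes of identity and tissue residence, whereas TGF-beta and IL-2 switch Foxp3 on in conventional CD4 T cells that are being activated. Treg made in this way proliferate and take up the metabolism of activated T cells, and in many settings they lose Foxp3 more readily.

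The 6 libraries held 6763458 to 10845948 counts in nTreg and 11332590 to 13223102 in iTreg, with 13417 to 13778 and 13597 to 14139 genes with a read. Xist, a noncoding RNA that coats the inactive X chromosome, was counted at 723 CPM (the count relative to the library total, here without normalisation) in nTreg replicate 3 and at 2035 CPM in iTreg replicate 2, and at 0.148 CPM or less in the other libraries. Ddx3y, which is Y-linked, was at 102 CPM in nTreg replicate 3 and at 0 in iTreg replicate 2, so these 2 libraries stood apart from their groups in sex-linked genes. Values without both of them are given where they change a result. Elsewhere CPM are normalised by TMM, which adjusts each library total by a trimmed mean of log ratios between libraries (factors 0.977 to 1.013 here). It assumes that most genes do not differ or that their differences balance. The defining markers were present in both groups: Cd4 stood at 891 to 961 CPM in nTreg and 426 to 657 CPM in iTreg, and Cd3e at 559 to 599 and 308 to 366 CPM.

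Most of the transcriptome differed. Of 12038 genes tested with edgeR's quasi-likelihood test, 7850 (65.2%) passed at an adjusted p (Benjamini-Hochberg) under 0.05. In iTreg 4187 were higher (34.8%) and 3663 lower (30.4%), and the change was at least 2-fold in 2193 (18.2%) and 1883 (15.6%). The 3 iTreg libraries lay entirely above or below the 3 nTreg libraries for 8580 genes (71.3%), above for 4505 (37.4%) and below for 4075 (33.9%). Changes of at least 32-fold were found in 236 genes that were higher and 194 that were lower. The median log2 fold change over all genes tested was 0.05, and the quartiles were -0.61 and 0.74. Any 2 libraries of nTreg differed by a median of 0.12 to 0.135 on the log2 scale over 9192 genes and 2 libraries of iTreg by 0.157 to 0.233, against 0.531 to 0.64 between an iTreg and an nTreg library. With so many genes past the threshold, a list of genes is read below against these shares.

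**Figure D1:**
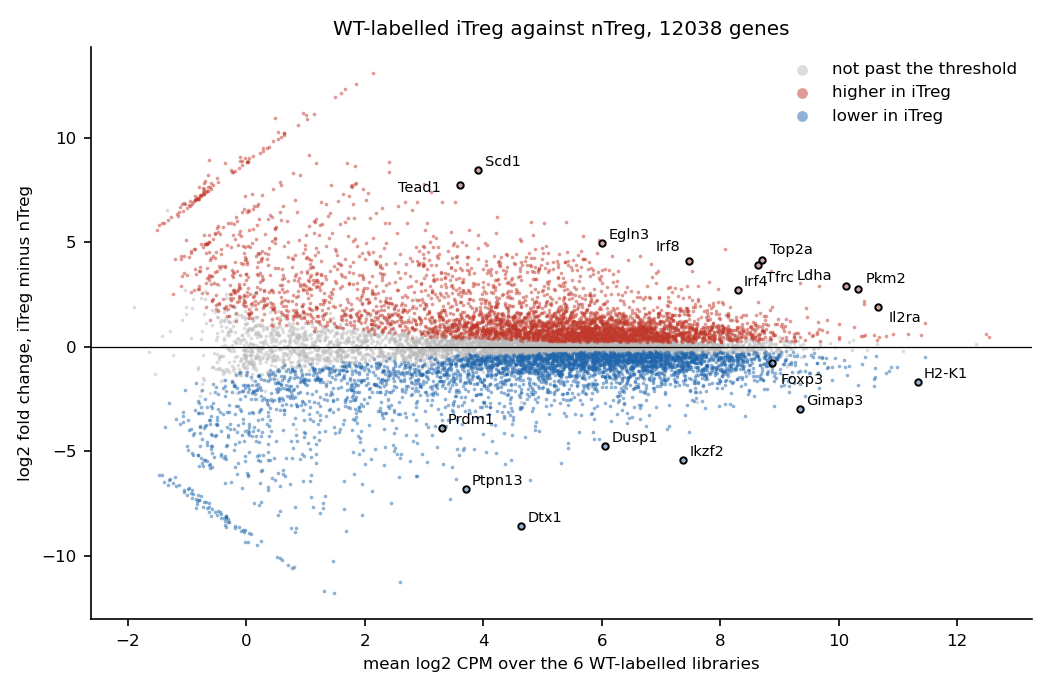
Each point is 1 of 12038 genes, placed by its mean log2 CPM over the 6 libraries and its log2 fold change, iTreg minus nTreg. Red and blue points passed the threshold (4187 higher and 3663 lower in iTreg), and the outer slanted rows of points are genes without reads, or nearly so, in 1 group. Il2ra and the glycolytic genes Ldha and Pkm2 are the abundant named genes that were higher, and Dtx1 and Ikzf2 stand far below the line.

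The Treg signature was mixed rather than uniformly lower. Of 37 tested genes of a list of Treg signature genes, 22 were lower in iTreg and 7 higher, with a median log2 fold change of -0.79 against 0.05 over all genes tested. Foxp3 (chromosome X, 7573644 to 7595245, mm10) was counted at 583, 615 and 665 CPM in nTreg and at 377, 306 and 393 CPM in iTreg. The groups did not overlap, and iTreg held 1.73-fold less (log2 fold change -0.79, SE 0.22, adjusted p = 0.0064 by edgeR). Without both libraries that hold Xist the log2 fold change was -0.64 with an adjusted p of 0.078 by edgeR, so the call was lost there. Il2ra (chromosome 2, 11642807 to 11693193), the high-affinity IL-2 receptor chain CD25, went the other way, with 794, 858 and 863 CPM in nTreg and 3095, 3014 and 3311 CPM in iTreg (log2 fold change 1.91, SE 0.13, adjusted p = 2.1e-07 by edgeR). The summed CPM of the whole list was nearly equal in the groups, at 10437 to 11577 in nTreg and 10439 to 11218 in iTreg, since the gain of Il2ra nearly equalled the net loss of the other members.

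The sharpest loss among identity genes was that of Ikzf2 (chromosome 1, 69531214 to 69687245), which encodes Helios, a factor found mostly in thymus-derived Treg. It was counted at 931, 1274 and 1069.6 CPM in nTreg and at 23.8, 21.8 and 30.8 CPM in iTreg, a 42.9-fold difference (log2 fold change -5.42, SE 0.22, adjusted p = 1.3e-08 by edgeR). The relative Ikzf4, which encodes Eos, did not follow it: 170.2, 209 and 194 CPM in nTreg and 161, 147 and 137 CPM in iTreg, with no overlap but no call (log2 fold change -0.36, SE 0.21, adjusted p = 0.15 by edgeR). Nrp1, a surface receptor also used to mark thymic Treg, was at 378, 387 and 348 CPM against 292, 259.9 and 289 CPM, again without a call (log2 fold change -0.40, SE 0.38, adjusted p = 0.36 by edgeR). The 2 genes often used together to tell thymic from induced Treg thus stood far apart in size here. With the 6 libraries fitted alone, Ikzf4 (adjusted p = 0.013) and Nrp1 (adjusted p = 0.004) passed edgeR's test.

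**Figure D2:**
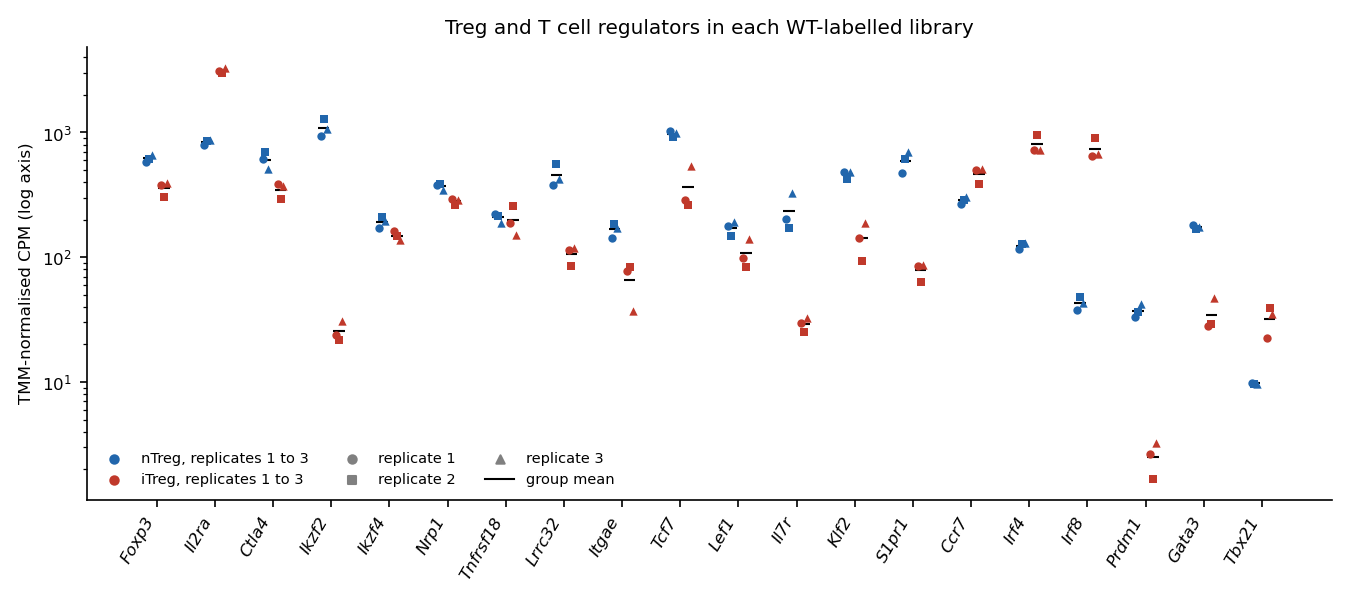
TMM-normalised CPM of 20 Treg and T cell genes (log axis) in each nTreg (blue) and iTreg (red) library, with the symbol giving the replicate and the bar the group mean. Ikzf2 and Prdm1 show wide gaps below the nTreg libraries, Il2ra, Irf4 and Irf8 gaps above them, and the libraries overlap for Tnfrsf18.

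Of 29 tested molecules through which Treg suppress, 9 were higher and 11 lower, shares near those of all genes (34.8% and 30.4%). Ctla4, which strips costimulatory ligands from other cells, was at 608, 694 and 513 CPM in nTreg and 385, 291 and 370.4 CPM in iTreg (log2 fold change -0.79, SE 0.21, adjusted p = 0.0051 by edgeR). Lrrc32, which encodes GARP and holds latent TGF-beta at the surface, was 4.28-fold lower (453 ± 92.5 against 106 ± 18.7 CPM, SD, n = 3), and Itgb8, the integrin chain that helps to release active TGF-beta, 41.0-fold lower, from 24.5 ± 2.47 to 0.591 ± 0.252 CPM. Both parts of that surface machinery were thus lower in iTreg, while Tgfb1 itself was higher (log2 fold change 0.78). Il10, an inhibitory cytokine, was at 15.8, 8.78 and 6.79 CPM in nTreg and at 0.15, 0.753 and 0.0904 CPM in iTreg (log2 fold change -4.88, adjusted p = 0.00073 by edgeR, and -6.27 without iTreg replicate 2). The genes of adenosine production split: Nt5e, which encodes CD73, was higher (1.01) and Entpd1, which encodes CD39, lower (-1.12). Gzmb, a granule protease, was higher, from 6.79, 14.7 and 21.1 CPM to 30.8, 54.9 and 38.9 CPM (1.53, adjusted p = 0.0021 by edgeR). Tnfrsf18, the receptor GITR, was at 224, 213 and 189 CPM against 187, 257 and 149.8 CPM, with overlapping groups and a log2 fold change of -0.07 (SE 0.34, adjusted p = 0.86 by edgeR).

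Genes of effector Treg were higher in 11 of 32 (34.4%, against 34.8% of all genes) and lower in 15 (46.9%, against 30.4%). Effector Treg are the activated cells that enter tissues. Prdm1, which encodes Blimp-1, a driver of that state, was at 32.9, 36.1 and 42.2 CPM in nTreg and at 2.63, 1.66 and 3.25 CPM in iTreg, 14.8-fold lower (log2 fold change -3.89, SE 0.32, adjusted p = 7.5e-07 by edgeR). Irf4, a factor induced by the T cell receptor that acts with Blimp-1 in effector Treg, was instead at 116, 127 and 129.8 CPM in nTreg and 721, 959 and 729.8 CPM in iTreg, 6.48-fold higher (2.69, SE 0.12, adjusted p = 2e-08 by edgeR). The pair therefore moved in opposite directions. Klrg1, a receptor of terminally differentiated cells, was at 38.1, 38.9 and 46.2 CPM in nTreg and had no read in any iTreg library, which is at least 516-fold lower with a floor of 3 counts over the iTreg libraries. Il1rl1, the IL-33 receptor of tissue Treg, was 30.6-fold lower, from 47.0, 58.5 and 102 CPM to 2.25, 2.03 and 2.53 CPM. Ccr8, a chemokine receptor of tissue and tumour Treg, was 5.73-fold higher, from 29.8 ± 4.49 to 170.3 ± 8.10 CPM.

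The factors that steer helper subsets were not lost together. Tbx21, which encodes T-bet, was at 9.90, 9.63 and 9.68 CPM in nTreg and 22.5, 39.0 and 35.2 CPM in iTreg (log2 fold change 1.73, adjusted p = 0.00025 by edgeR). Gata3, the factor of type 2 cells that also supports Treg, was 5.02-fold lower (174 ± 5.46 against 34.8 ± 10.6 CPM). Batf (-1.76) and Maf (-1.13), cofactors of several effector programmes, were lower too. Of 25 tested genes of the type 1 programme 9 were higher and 7 lower, shares near those of all genes. Among its chemokines Xcl1 went from 0.841 ± 0.256 to 102 ± 44.9 CPM, and Ccl4 from 0.674 ± 0.460 to 61.3 ± 7.59 CPM. Stat4, which carries the IL-12 signal, was 7.11-fold lower. Among 28 type 2 and type 17 genes 9 were higher (32.1%, against 34.8% of all genes) and 14 lower (50%, against 30.4%). Il17f had no read in nTreg and 3.60, 6.70 and 5.69 CPM in iTreg, at least 43.7-fold higher. Follicular helper genes were lower as a group, 16 of 20 with a median of -1.41, among them Cxcr5 (-2.95), Tox2 (-4.85) and Slamf6 (-3.63, and -4.30 without iTreg replicate 3). The 1 that was higher was Pdcd1, which encodes PD-1 (0.85). Bcl6, the factor of follicular helper cells, did not overlap between the groups but missed the threshold (-0.63, SE 0.29, adjusted p = 0.071 by edgeR). It passed with DESeq2 (adjusted p = 0.038) and voom (0.012). With the 6 libraries fitted alone it passed edgeR's test without (adjusted p = 0.00094) and with a replicate block (0.0032).

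Genes of naive and resting T cells were lower in iTreg: 33 of 41 tested, with 4 higher and a median log2 fold change of -1.24. Il7r, the IL-7 receptor, was 8.04-fold lower, from 202, 172 and 328 CPM to 29.5, 25.4 and 32.5 CPM, and S1pr1, which lets lymphocytes leave lymph nodes, 7.55-fold lower. The transcription factors that sustain these genes were lower as well: Klf2 (-1.72), Foxo1 (-0.87), Tcf7 (-1.42) and Lef1 (-0.68), although Tcf7 and Lef1 did not pass without both libraries that hold Xist (adjusted p = 0.062 and 0.127 by edgeR). Satb1, a chromatin organiser that thymic Treg development requires, went from 456, 400.1 and 504 CPM to 65.6, 53.4 and 117 CPM (-2.53). The 4 exceptions were Ccr7, a homing receptor for lymph nodes (286 ± 18.8 against 464 ± 68.8 CPM, 0.70), the repressor Bach2 (0.64), Igfbp4 (1.88) and the cell cycle inhibitor Cdkn2d (0.66).

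Homing receptors and integrins followed the resting genes, with 23 of 36 lower, 8 higher and a median of -1.30. Ccr9, the gut homing receptor, was at 12.3, 15.3 and 18.7 CPM in nTreg and held 1 read in all iTreg libraries together. Fut7, the enzyme that builds selectin ligands, was 9.94-fold higher, from 4.28, 5.80 and 9.49 CPM to 75.8, 66.4 and 57.7 CPM, and Cx3cr1, the fractalkine receptor, rose from 0.443, 0.849 and 0.279 CPM to 60.6, 70.8 and 32.3 CPM (6.76). Itgae, the chain CD103 that TGF-beta commonly induces, was lower in iTreg (-1.34, adjusted p = 0.0004 by edgeR). The other genes that were higher were Ccr4, Ccr7, Ccr8, Itgav, Cd44 and Fut4.

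T cell receptor components and signalling enzymes were mostly lower, 29 of 42 with 4 higher (Ptprj, Nfkb2, Nfatc2 and Nfkb1), though by less than the groups above (median -0.51). Ptprc, which encodes CD45, was at 2656, 2829 and 2747 CPM in nTreg and 1168, 984 and 1362 CPM in iTreg (-1.23), the kinase Fyn at 715 ± 16.5 against 308 ± 43.5 CPM, and the protein kinase Prkcq, which relays the CD28 signal, 3.04-fold lower. Brakes of that pathway were split, 21 of 42 lower (50%, against 30.4% of all genes) and 11 higher (26.2%, against 34.8%). Among genes whose mean log2 CPM reached 3, the steepest fall belonged to this list. Dtx1 (chromosome 5, 120680202 to 120711927), an E3 ligase of the Notch pathway linked to T cell anergy, was counted at 514, 488 and 438 CPM in nTreg and at 1.43, 1.66 and 0.542 CPM in iTreg. That is 385-fold lower (log2 fold change -8.59, SE 0.50, adjusted p = 6.9e-08 by edgeR); the nTreg libraries were close together and the 3 iTreg libraries all near 0. Btla, an inhibitory receptor, was 3.34-fold lower and Tigit, another, 2.76-fold lower, whereas Nr4a3, a factor induced by receptor signals, was 4.33-fold higher (28.2 ± 2.23 against 122 ± 30.4 CPM).

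Both cytokines of the culture act through pathways whose genes were measured. Of 48 tested genes of the TGF-beta pathway and its response, 21 were higher and 13 lower, with a median of 0.32. The called share was 70.8%, against 65.2% of all genes. Pmepa1, a target that restrains the pathway, was at 42.8, 45.9 and 43.3 CPM in nTreg and 237, 238 and 203 CPM in iTreg (log2 fold change 2.36, SE 0.10, adjusted p = 1.4e-08 by edgeR). The signal transducer Smad3 (-1.39), the inhibitor Smad7 (-0.98) and the receptor chain Tgfbr2 (-0.80) were lower, and the chain Tgfbr1 higher (0.89). In the IL-2 and STAT5 pathway 13 of 34 were higher and 10 lower, shares close to those of all genes. Socs2, a feedback inhibitor that STAT5 induces, was 7.40-fold higher (64.3 ± 10.6 against 477 ± 127 CPM), and the receptor-bound kinase Jak1 was 2.42-fold lower (1135 ± 38.3 against 469 ± 41.9 CPM). Of the receptor's chains Il2ra was thus higher, and Il2rb (-0.52) and Il2rg (-0.82) were lower. Within the TNF family Cd40 stood out, with 0.148, 0.283 and 0.279 CPM in nTreg and 28.1, 29.5 and 28.4 CPM in iTreg (6.81, adjusted p = 4.7e-08 by edgeR), while Cd27 was 4.54-fold lower.

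Cell division separated the groups most uniformly. All 60 tested genes of DNA replication and S phase were higher in iTreg, against 34.8% of all genes, with a median log2 fold change of 2.34. Of 67 genes of mitosis and G2/M 64 were higher and 2 lower (Smc4 and Pttg1), with a median of 3.77, and Cdc25b did not pass. Mki67, the usual marker of cycling cells, was at 137, 94.0 and 170.4 CPM in nTreg and 1741, 1577 and 1626 CPM in iTreg (3.62, SE 0.20, adjusted p = 4.9e-08 by edgeR). Top2a, which untangles DNA before division, was at 126, 63.4 and 115 CPM against 1617, 1924 and 1792 CPM (4.13). The nTreg libraries were less alike here than for most genes, with replicate 2 the lowest for Top2a, Mki67 and Ccna2 (36.9, 8.49 and 27.1 CPM). Mcm6 of the replicative helicase (2.14), the DNA polymerase subunit Pole (3.10) and Foxm1, the factor that drives the mitotic genes (3.55), were each higher in 3 of 3 iTreg libraries. The summed level of the mitotic list was 2498 to 3183 CPM in nTreg and 15301 to 16593 CPM in iTreg, 5.44 times as much. In bulk RNA, a larger share of cycling cells and more RNA per cycling cell cannot be told apart.

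The inhibitors of the cycle did not form 1 block. Cdkn1a, which encodes p21, was at 2.36, 1.98 and 2.70 CPM in nTreg and 148, 326 and 57.7 CPM in iTreg (6.21, SE 0.74, adjusted p = 1.7e-05 by edgeR, and 5.43 without iTreg replicate 2). The other inhibitor of the same family, Cdkn1b or p27, which keeps resting T cells out of the cycle, was lower (-0.98), as was the pocket protein Rbl2 (-1.56). The kinase Cdk4 was 2.74-fold higher.

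The promoters of the cell cycle genes are shown because 2 short motifs known from such genes were much more frequent in them than elsewhere. In RefSeq promoters (GRCm38.p6, the build of mm10, 250 bases before to 50 after the gene start, both strands), the 4 E2F words TTTGGCGC, TTTCGCGC, TTTCCCGC and TTTGGCGG had a match in 23 of 56 promoters of the S phase list (41.1%) and in 4.34% of 12294 promoters of genes tested. The CHR word TTTGAA, the cell cycle homology element, had one in 44 of 63 promoters of the mitotic list (69.8%) and in 12.1% of all. Over promoters of all genes higher and all genes lower, the E2F words matched in 6.28% and 2.79%, and the CHR word in 14.2% and 11.2%. Other motifs were searched too and are not shown, such as the E-box in ribosome biogenesis promoters (17.65%, against 9.96% of all). Such a match describes letters, not binding. In the following windows, which end at or before the gene start, capitals mark the match, read on the gene's strand. Orc1 (chr4:108579387-108579453, plus strand), a subunit of the origin recognition complex, went from 2.81, 3.11 and 1.30 CPM to 27.5, 42.3 and 34.3 CPM. Ube2c (chr2:164769860-164769928, plus strand), which tags mitotic cyclins for destruction, went from 16.2, 4.53 and 11.5 CPM to 247, 280 and 248 CPM, and Kif2c (chr4:117178830-117178915, minus strand), a kinesin that corrects chromosome attachment, from 9.90, 2.83 and 5.58 CPM to 125, 137 and 142 CPM.
Orc1: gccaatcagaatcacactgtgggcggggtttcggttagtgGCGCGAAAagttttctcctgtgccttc
Ube2c: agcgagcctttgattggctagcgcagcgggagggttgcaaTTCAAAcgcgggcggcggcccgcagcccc
Kif2c: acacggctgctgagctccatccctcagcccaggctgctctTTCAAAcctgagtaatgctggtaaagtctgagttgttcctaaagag

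**Figure D3:**
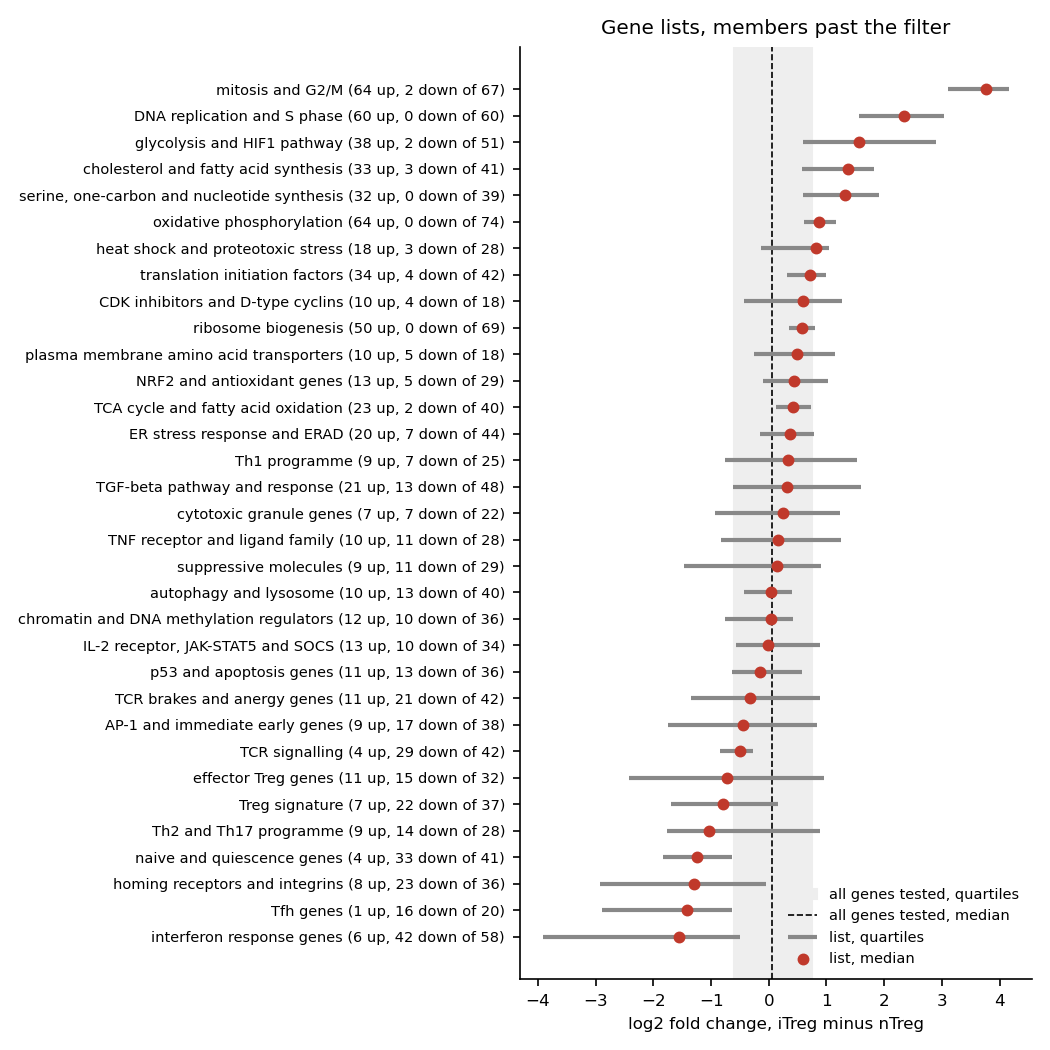
Median log2 fold change (red) and quartiles (grey bars) of 33 gene lists, with all genes tested shown as a dashed line (median) and a grey band (quartiles). The 2 cell cycle lists lie clear of the band at the top (medians 3.77 and 2.34), and interferon response genes lie lowest (-1.55).

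Genes of growth were higher by less but almost without exception in direction. Of 69 ribosome biogenesis genes 50 were higher and 0 lower (median 0.58), and of 42 translation initiation factors 34 were higher and 4 lower. Npm1, a nucleolar chaperone, was at 382, 335 and 332 CPM in nTreg and 796, 843 and 986 CPM in iTreg (1.32), and the translation elongation factor Eef2, one of the most abundant transcripts, at 4624 ± 652 against 7112 ± 555 CPM (0.62). Myc, which drives this programme, was at 204, 205 and 206 CPM in nTreg and 494, 511 and 425 CPM in iTreg (1.22, SE 0.14, adjusted p = 1e-05 by edgeR). The summed ribosome biogenesis level was 8102, 9277 and 11824 CPM in iTreg, highest in replicate 3, and 6048 to 6504 CPM in nTreg. The 4 initiation factors that were lower were Pdcd4, Eif4a2, Eif4ebp2 and Eif4g3, the first of them an inhibitor of initiation. Of 28 chaperones and heat shock genes 18 were higher and 3 lower (Bag3, Hsf1 and Hspa1b). Among those higher were the chaperonin subunit Tcp1 (3.11-fold) and mitochondrial Hspa9 (2.42-fold).

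Glycolysis and genes of the hypoxia-inducible factor HIF1 showed both a large difference and a large spread among iTreg libraries. Of 51 tested, 38 were higher and 2 lower (Ldhb and Hif1a), with a median of 1.56. Ldha, which turns pyruvate into lactate, was at 414, 386 and 449 CPM in nTreg and 3297, 3714 and 2253 CPM in iTreg (2.89, SE 0.22, adjusted p = 5.6e-07 by edgeR). Pkm2, counted under the older symbol of the pyruvate kinase gene Pkm, was at 552, 451 and 495 CPM against 3827, 3978 and 2305 CPM, and the enzyme Tpi1 at 62.9, 49.5 and 57.4 CPM against 1694, 1927 and 654 CPM. In each of these iTreg replicate 3 was the lowest, and among the genes given here the ratio was widest for Bnip3 and P4ha2. Egln3, an oxygen sensor that HIF1 itself induces, was at 397, 627 and 146 CPM in iTreg (11.5, 10.6 and 15.2 in nTreg), Bnip3, a mitophagy receptor, at 197, 223 and 21.5 CPM (3.25, 3.54 and 3.26), and P4ha2, a collagen hydroxylase, at 31.5, 51.3 and 1.81 CPM (0.148, 0.708 and 0.186). Every one of these libraries still lay above all nTreg libraries. The summed level of the list was 21469, 24187 and 11586 CPM in iTreg and 4499 to 5076 CPM in nTreg. Replicate 3 was thus the lowest in glycolysis while it was the highest in ribosome biogenesis, and the part of culture conditions in this spread was not tested. Hif1a itself was lower in iTreg (-0.43, SE 0.09, adjusted p = 0.0017 by edgeR). Gapdh was counted at only 5.68 to 18.2 CPM, and its value is uncertain, as are those of Ldha, Tpi1 and Npm1: near-identical copies of such genes can take part of the reads, which was not tested.

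The hypoxia element is shown for 2 of these genes. The word ACGTGC, on either strand, had a match in 21 of 65 promoters of the glycolysis and HIF1 list (32.3%) and in 8.23% of all promoters of genes tested. Over all genes called, it matched in 9.21% of promoters of those higher and 7.33% of those lower. The windows are those of P4ha2 (chr11:54100806-54100891, plus strand) and Bnip3 (chr7:138909568-138909653, minus strand), with the match in capitals.
P4ha2: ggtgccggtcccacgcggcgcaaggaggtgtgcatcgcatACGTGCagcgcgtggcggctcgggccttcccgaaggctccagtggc
Bnip3: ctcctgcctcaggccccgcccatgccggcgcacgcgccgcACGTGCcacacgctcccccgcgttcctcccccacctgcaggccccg

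Mitochondrial respiration genes encoded in the nucleus were higher too, 64 of 74 with 0 lower and a median of 0.87. The succinate dehydrogenase subunit Sdhd went from 74.3, 65.1 and 68.7 CPM to 142, 164 and 161 CPM (1.17), and Cox5a of cytochrome oxidase from 71.0 ± 3.80 to 219 ± 14.3 CPM. Over all genes the median log2 fold change fell from 0.35 in the shortest of 5 classes of transcript length to -0.26 in the longest. With a correction for length and GC content the median of the respiration list was 0.57. Enzymes of the citric acid cycle and fatty acid oxidation were higher in 23 of 40 and lower in 2, a called share (62.5%) near that of all genes (65.2%), with Pcx, the pyruvate carboxylase that refills the cycle, standing apart: 4.23 ± 0.701 CPM in nTreg and 143 ± 34.3 CPM in iTreg (5.08, SE 0.29, adjusted p = 5.9e-08 by edgeR).

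Lipid synthesis held the largest rise among genes whose mean log2 CPM reached 3. Scd1 (chromosome 19, 44394455 to 44407879), the desaturase that makes monounsaturated fatty acids, was at 0.739, 0.142 and 1.40 CPM in nTreg and 289, 252 and 341 CPM in iTreg. That is 345-fold more (8.43, SE 0.38, adjusted p = 2e-08 by edgeR), on few nTreg reads, and the log2 fold change was 9.36 without nTreg replicate 3. Its relative Scd2 was expressed in both, at 194, 291 and 196 CPM against 1804, 1788 and 2079.5 CPM (3.06). Of 41 genes of cholesterol and fatty acid synthesis 33 were higher and 3 lower (Elovl5, Acss2 and Mylip), with a median of 1.37, and the rises ran along the sterol pathway, from Hmgcs1 at its start (1.98) to Sqle (2.02) and Cyp51 (2.39). The 2 genes that make acetyl-CoA for it outside mitochondria moved apart: Acly, which splits citrate, was higher (0.43) and Acss2, which uses acetate, 3.55-fold lower (68.8 ± 6.24 against 19.4 ± 1.77 CPM).

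Synthesis of serine, one-carbon units and nucleotides was higher in 32 of 39 genes and lower in 0 (median 1.33). The purine enzyme Paics went from 131, 123 and 125 CPM to 355, 405 and 383 CPM (1.60, SE 0.09, adjusted p = 5.6e-08 by edgeR), Prps1, which supplies the ribose for all nucleotides, was 4.98-fold higher, and Phgdh, the first enzyme of serine synthesis, was higher by 1.90 on the log2 scale. Asns, the asparagine synthetase that the factor ATF4 induces, went from 2.51, 1.42 and 2.33 CPM to 57.4, 51.1 and 19.6 CPM (4.34). Transporters for amino acids were less uniform, 10 of 18 higher (55.6%, against 34.8% of all genes) and 5 lower (27.8%, against 30.4%). Slc7a5, the main carrier of large neutral amino acids, was 4.38-fold higher (68.0 ± 6.60 against 298 ± 26.2 CPM), the serine and alanine carrier Slc1a4 went from 2.36, 1.70 and 1.40 CPM to 43.7, 36.6 and 21.1 CPM, and the glycine carrier Slc6a9 from 0.443, 0.142 and 0.465 CPM to 11.6, 8.21 and 9.94 CPM. The receptor for transferrin iron, Tfrc, was 15.1-fold higher, with 108, 107 and 92.6 CPM in nTreg and 1390.4, 1789 and 1469 CPM in iTreg (3.92, SE 0.14, adjusted p = 6.5e-09 by edgeR).

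Of 44 tested ER genes 20 were higher, 7 lower and 17 without a call. The called share (61.4%) was near that of all genes (65.2%). By direction, 45.5% were higher and 15.9% lower, against 34.8% and 30.4% of all genes. Hspa5, the main ER chaperone, was at 766, 576 and 505 CPM in nTreg and 542, 605 and 585 CPM in iTreg (-0.09, SE 0.18, adjusted p = 0.67 by edgeR). Xbp1, a factor of the unfolded protein response that plasma cells also need, was at 89.8, 90.0 and 101 CPM against 288, 289 and 230.1 CPM (1.52), the lectin chaperone Canx 2.10-fold higher, and Edem1, which directs misfolded glycoproteins to degradation, 2.16-fold lower. Syvn1, the gene of Hrd1, was at 73.7, 87.2 and 75.5 CPM in nTreg and 61.6, 72.2 and 101 CPM in iTreg, with overlapping groups and a log2 fold change of -0.01 (SE 0.17, adjusted p = 0.97 by edgeR). Trib3, a target of the same ATF4 branch as Asns, went from 2.81, 1.98 and 4.65 CPM to 39.7, 34.3 and 26.5 CPM (3.35), although Atf4 itself did not pass (0.46, adjusted p = 0.11 by edgeR). Of the antioxidant genes 13 of 29 were higher and 5 lower, a called share (62.1%) also near that of all genes. Among those higher were Txn1, which encodes thioredoxin (5.34-fold), and the ER peroxiredoxin Prdx4 (5.68-fold).

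**Figure D4:**
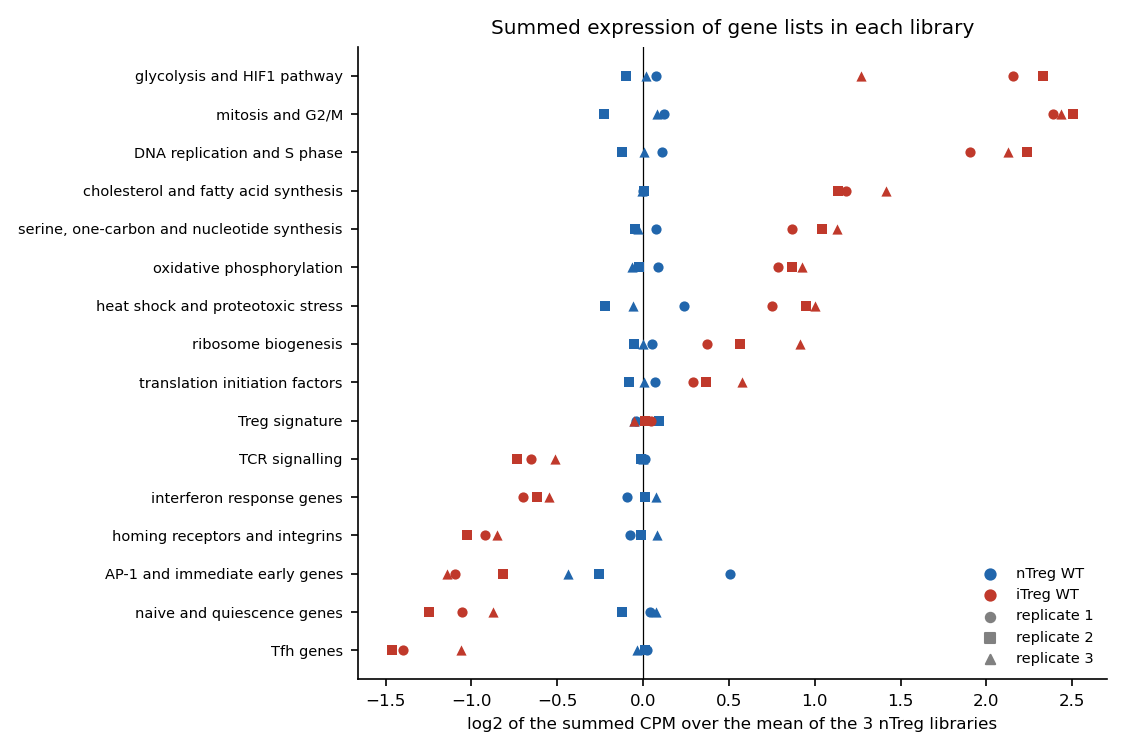
Summed CPM of the members of 16 lists in each library, as log2 of its ratio to the mean of the 3 nTreg libraries, with blue for nTreg, red for iTreg and the symbol for the replicate. iTreg replicate 3 lies apart from the other iTreg libraries for glycolysis and HIF1, nTreg replicate 1 lies highest for immediate early genes, and the groups overlap only for the Treg signature.

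Interferon response genes had the lowest median (-1.55) of the 33 lists of T cell genes and cell processes. Of 58 tested, 42 were lower in iTreg and 6 higher. Irf7, the factor that amplifies type I interferon, was at 91.9, 95.4 and 109.7 CPM in nTreg and 4.20, 2.94 and 9.31 CPM in iTreg (-4.20, SE 0.36, adjusted p = 1.1e-06 by edgeR), and Isg15, a ubiquitin-like protein it induces, went from 21.3, 25.1 and 24.5 CPM to 0.675, 0.753 and 2.80 CPM (-4.10). Slfn8, of the Schlafen family, was 16.7-fold lower (183, 197 and 218 CPM against 11.2, 10.1 and 14.6 CPM), and Samd9l, an antiviral factor, 13.9-fold lower. iTreg replicate 3 kept the most of Irf7 and Isg15, still far below each nTreg library. The 6 that were higher were Irf8, Gbp2, Igtp, Ifi47, Tgtp1 and Psmb8, and 4 of them (Gbp2, Igtp, Ifi47 and Tgtp1) encode GTPases mainly known as targets of interferon gamma. Irf8 (chromosome 8, 120736358 to 120756694), a factor best known from myeloid and B cells, was at 38.1, 47.7 and 43.4 CPM in nTreg and 651, 907 and 667 CPM in iTreg (4.11, SE 0.29, adjusted p = 3e-07 by edgeR). The gene for interferon gamma, Ifng, overlapped between the groups (13.6, 8.35 and 3.91 against 16.1, 28.0 and 6.05 CPM).

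The guanylate-binding proteins, GTPases induced by interferon that act against intracellular microbes, show the split within a family. Of 11 tested Gbp genes 9 were lower, Gbp2 was higher (log2 fold change 0.93) and Gbp5 did not pass (0.52, adjusted p = 0.1 by edgeR). They lie in a cluster on chromosome 3 (from Gbp5 at 142493978 to Gbp2 at 142638008, mm10) and one on chromosome 5 (from Gbp8 at 105014150). Gbp7 on chromosome 3 was at 319.8, 327 and 350.4 CPM in nTreg and 28.6, 29.0 and 32.3 CPM in iTreg (-3.47), whereas Gbp2, in the same cluster, was at 138, 144 and 175 CPM against 281, 307 and 282 CPM. Gbp3 (-1.40) and Gbp1 (-2.86), which lie between them, were lower, so genes of 1 cluster moved in opposite directions. Gbp4, Gbp8 and Gbp9 overlap in the annotation and resemble each other, so reads may have been split between them, and the value of Gbp4 was -3.78, or -4.45 without iTreg replicate 3.

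The interferon-stimulated response element is shown because most promoters of the list held it. The word GAAANNGAA, on either strand, had a match in 29 of 52 promoters of the list (55.8%) and in 7.14% of promoters of all genes tested. Over all genes called, it matched in 6.64% of promoters of those higher and 8.29% of those lower. The windows are from Oas1a (chr5:120907526-120907579, minus strand), which senses double-stranded RNA and was at 17.9, 17.6 and 19.6 CPM in nTreg and 0.075, 0.151 and 0 CPM in iTreg, and Rsad2 (chr12:26456523-26456611, minus strand), the antiviral enzyme viperin, at 6.65, 9.48 and 17.2 CPM against 0, 0 and 0.361 CPM. The Oas1a promoter held 2 matches that overlap, and capitals mark 1 of them.
Oas1a: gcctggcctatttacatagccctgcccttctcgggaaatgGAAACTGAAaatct
Rsad2: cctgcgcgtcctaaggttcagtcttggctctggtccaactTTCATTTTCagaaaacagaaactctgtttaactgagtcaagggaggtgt

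Immediate early genes, which respond within minutes to stimuli that include tissue handling, were mixed, 17 of 38 lower and 9 higher, and varied within nTreg. Their called share (68.4%) was near that of all genes (65.2%). Dusp1, a phosphatase of MAP kinases, was at 723, 260.0 and 177 CPM in nTreg and 12.8, 20.3 and 9.76 CPM in iTreg (-4.75, and -3.93 without nTreg replicate 1). Fos was at 735, 170.1 and 65.1 CPM against 8.10, 20.6 and 4.43 CPM, and the heat shock gene Hspa1b, named after its values were seen, at 178, 3.96 and 2.51 CPM against 2.63, 3.16 and 0.723 CPM. All 3 were highest in nTreg replicate 1, and the Hspa1b difference lay in that library alone. The RNA-destabilising factor Zfp36 was lower as well (534 ± 195 against 55.7 ± 5.06 CPM), whereas Fosl1, an AP-1 subunit, had 2 reads in nTreg altogether and 6.98, 7.76 and 5.87 CPM in iTreg. The summed list stood at 14159 CPM in nTreg replicate 1, 8350 and 7365 CPM in the other two, and 4509 to 5665 CPM in iTreg. The part of handling in these genes was not tested.

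Beyond the lists, the largest rises among genes whose mean log2 CPM reached 3 were, after Scd1, those of Tead1, a factor of the Hippo pathway (0.591, 0.708 and 0.931 CPM against 179, 140.2 and 173 CPM), the tubulin Tubb6, Xcl1 and Myof, a membrane repair protein, and the 15 named ranged from 5.34 to 8.43 on the log2 scale. The 15 falls ranged from -8.59 to -4.93. After Dtx1 they were led by Ptpn13, a tyrosine phosphatase (128 ± 8.72 against 1.16 ± 0.355 CPM, -6.79), the interferon-inducible Pyhin1 (-6.36, and -7.59 without iTreg replicate 3) and the potassium channel Kcna3 (-6.30, and -6.91 without that library). Measured in transcripts rather than in ratio, Pkm2, Ldha, Eef2, Vim and Il2ra gained most, and the 10 genes that gained most held 1.51% of nTreg and 3.79% of iTreg counts. Vim, the intermediate filament of activated lymphocytes, went from 612, 554 and 844 CPM to 3617, 3936 and 1635 CPM. The greatest loss was that of H2-K1, a classical MHC class I chain, at 4849, 4634 and 4454 CPM in nTreg and 1597, 1695 and 1091 CPM in iTreg (-1.67, adjusted p = 1.5e-05 by edgeR). Its partner B2m (-0.95) and H2-D1 (-1.14) were among the 10 greatest losses too (near-identical class I genes can share reads), together with Gimap3, a GTPase of lymphocyte survival (-2.97).

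A few genes were read in 1 group only. Of the genes tested 97 had no read in nTreg and 74 none in iTreg, and 18 and 8 of them reached 10 CPM in the other group. Of these Acsl6, a fatty acid activating enzyme, had 109, 97.8 and 100.3 CPM in iTreg, at least 840-fold more than a floor of 3 counts over the nTreg libraries, and H19, an imprinted noncoding RNA, 46.9, 84.1 and 84.5 CPM, at least 588-fold more. In the other direction Kcna2, a potassium channel, had 9.16, 21.1 and 21.1 CPM in nTreg and none in iTreg, at least 215-fold less. These 3 were named after their values were seen, and floors cover counting error only.

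Markers of other cell types were measured too, although both populations were sorted for GFP and nTreg also for CD4, and whether their reads came from such cells was not tested. Of 27 tested markers of macrophages, monocytes and dendritic cells 22 were lower in iTreg and 1 higher (H2-Ab1), with a median of -6.13 (-5.11 with genes at 0 set to their bound). Their summed level was 255, 649 and 460 CPM in nTreg and 139, 191 and 95.5 CPM in iTreg, and 12 of 32 markers had no read in any iTreg library. Csf1r, the macrophage growth factor receptor, was at 95.3 CPM in nTreg replicate 2, at 30.3 CPM or less in the other nTreg libraries, and held 1 read in iTreg. The ratio of the sums, nTreg to iTreg, was 3.21, and 2.52 without nTreg replicate 2. Most of the iTreg sum came from Cd74 and H2-Ab1, of antigen presentation (83.3 to 164 CPM). Without these 2 genes the sums were 176 to 568 CPM in nTreg and 12.2 to 26.8 CPM in iTreg, a ratio of 20.8. Ccr2, which was kept in those sums, held 34.9, 40.2 and 126 CPM of them in nTreg and 0.527 CPM or less in iTreg. B cell markers summed to at most 35.6 CPM in nTreg and 1.72 to 3.92 CPM in iTreg, and markers of NK cells to 59.5 to 71.6 and 17.3 to 28.2 CPM. Klrg1, also an effector Treg gene, carried the NK difference: without it the sums overlapped, at 20.4 to 32.7 CPM in nTreg and 17.3 to 28.2 CPM in iTreg. CD8 T cell markers were 36.0 to 43.6 CPM in nTreg and 49.7 to 92.6 CPM in iTreg, with 5 of 10 higher and 4 lower. Cd8a was at 0.443, 0.708 and 2.05 CPM against 6.83, 11.1 and 7.95 CPM and the lectin receptor Klrd1 at 0.591, 0.142 and 0.186 CPM against 54.8, 39.8 and 20.8 CPM. Cd8b1, the other chain of CD8, was lower (12.8 ± 1.95 against 7.6 ± 2.35 CPM), as was the chemokine Ccl5 (-3.75). Plasma cell markers summed to 256 to 276 CPM in nTreg and 968 to 1255 CPM in iTreg, carried by Irf4 and Xbp1. Erythroid markers summed to 141 to 161 and 1414 to 1812 CPM, carried by Tfrc. T cells express these genes themselves. The plasma cell marker Igj was at 27.9, 0.991 and 1.40 CPM in nTreg and at 0.633 CPM or less in iTreg. Mpo, a neutrophil marker, was at 4.73, 0 and 0.0931 CPM in nTreg, so both were highest in nTreg replicate 1. Of the interferon, immediate early and suppressive lists, the part that such cells had in the differences was not tested.

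The KO-labelled libraries, from mice with both Hrd1 alleles floxed, gave the same contrast in 6 libraries that the comparison above does not contain. There 7451 of 12038 genes passed (61.9%). Of the 7850 genes called in WT-labelled cells 7745 (98.7%) had the same sign and 6682 (85.1%) had it and were called, while 18 were called in the opposite direction. All 49 genes named for the size of their fold change, as rises or falls, had the same sign and were called. The KO-labelled log2 fold change was -5.00 for Ikzf2 and -0.95 for Foxp3. The sets are not wholly independent, since a WT-labelled and a KO-labelled library with 1 number deviated together from their group means (r from 0.307 to 0.629 across genes). The difference of the 2 contrasts passed for 35 genes, among them several ER and amino acid response genes whose values close this text.

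**Figure D5:**
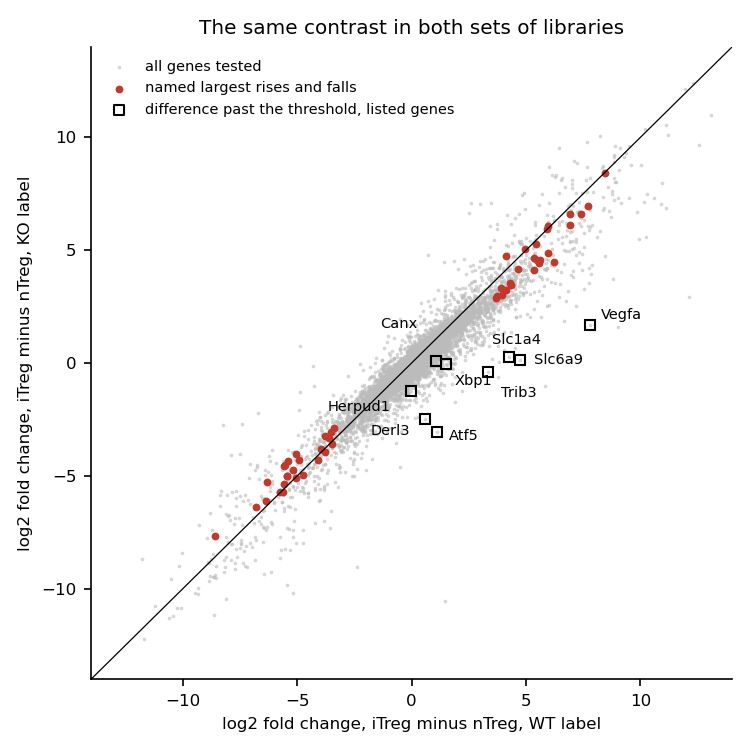
Log2 fold change, iTreg minus nTreg, in WT-labelled (x) and KO-labelled (y) libraries for 12038 genes, with the line of equality. The named largest rises and falls (red) lie near the line, and squares mark listed genes whose 2 changes differed past the threshold, such as Vegfa and Slc6a9.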

How the data were processed

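Gene-level read counts of 12 libraries, 23337 gene symbols each, were used as the authors deposited them, as whole numbers without normalisation. Reads came from a NextSeq 500, per the labels' protocols. The submitters' processing notes name cutadapt 1.13, STAR, HTSeq 0.6.1p1, DESeq2 and the build mm10; annotation and strand setting are not given in the sources used here, so overlapping and antisense genes cannot be told apart. Totals of the 6 libraries compared ranged from 6763458 to 13223102 counts.

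Genes passed edgeR's filter (minimum count 10, minimum total 15), counts were normalised by TMM, and all 12 libraries in 4 groups were fitted with edgeR 4.0.16 (limma 3.58.1, R 4.3.3), so that the groups shared 1 estimate of spread. The contrast was tested by quasi-likelihood with Benjamini-Hochberg adjustment over 12038 genes at 0.05. Every adjusted p not otherwise named is from this fit. DESeq2 1.42.0 served as an alternative. Python 3.11.15 and matplotlib 3.10.9 served for the figures.

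Genes were named by rule. By fold change, 15 in each direction were taken whose mean log2 CPM reached 3, and 10 in each direction at 6 or more. Those had passed the threshold without overlap between groups. A further 10 in each direction were taken by CPM difference without that condition. The rule also took 4 genes of smallest p per list and 38 regulators. Some genes that the rule or the lists hold are not reported here. List members named outside it were chosen after their values were seen. The comparison and the 42 lists were chosen with earlier results of these data known. Coordinates are from GENCODE M21 (mm10) and promoters from RefSeq.

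Alternatives were RLE size factors, no and a stricter low-count filter, DESeq2, voom, the 6 libraries alone, a replicate block, a test against 1.5-fold, each library left out, both libraries with Xist left out, counts thinned to the smallest total and, chosen after seeing the data, an offset for length and GC content, macrophage markers without nTreg replicate 2, and NK and macrophage marker sums without the genes that carry them. Data were also simulated with 67, 67 and 66 genes changed 1.5-fold, 2-fold and 4-fold and all others equal (11816 genes in the fit). Of these, 11.9%, 55.2% and 86.4% were recovered, and 7 of 11619 unchanged genes were called. Far fewer genes were changed there than the 7850 that passed here. The adjusted p depends on that share, so these rates do not describe recovery in the real contrast.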

Additional observations from a re-analysis of the deposited data

Results flagged for a closer look

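For 9 genes of the lists the iTreg minus nTreg change differed between KO-labelled and WT-labelled libraries by edgeR's test of the difference itself, over 12038 genes. In each the KO-labelled change was the lower. Xbp1 was higher in iTreg by 1.52 (log2) with the WT label and stood at -0.03 with the KO label, a difference of -1.55 (SE 0.19, adjusted p = 0.012 by edgeR). Canx stood at 1.07 and 0.08, a difference of -0.99 (SE 0.14). Derl3, a component of ER-associated degradation, stood at 0.59 and -2.46 (difference -3.06, SE 0.43), and Herpud1, another, at -0.04 and -1.22 (difference -1.18, SE 0.18, adjusted p = 0.017 by edgeR). Of genes that respond to amino acid shortage, Atf5 stood at 1.11 and -3.05, a difference of -4.15 (SE 0.28, adjusted p = 4.2e-05 by edgeR), and Trib3 at 3.35 and -0.40, a difference of -3.75 (SE 0.51). The carrier Slc1a4 stood at 4.25 and 0.27 (difference -3.98, SE 0.53), and Slc6a9 at 4.72 and 0.15 (difference -4.57, SE 0.58). Vegfa, a growth factor that HIF1 induces, stood at 7.80 and 1.67, a difference of -6.13 (SE 0.90, adjusted p = 0.017 by edgeR). These genes were thus largely outside the part of the contrast that both sets of libraries shared.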

How the results depend on the processing

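Of the alternatives run on the counts of genes past the threshold, only the test against a 1.5-fold change moved them by more than 1.5 times, to 4489 genes, 2429 higher and 2060 lower, since it asks for a larger effect. The others gave 6230 (without both libraries with Xist) to 8466 genes (voom), and leaving out single libraries gave 7099 to 7842. RLE size factors shared 7661 calls with the 7850, and DESeq2 shared 7669. Replicate numbers did not pair the groups (same-number correlations of 0.036, -0.054 and 0.047), and a replicate block called 8051 genes with 12 libraries and 7396 with 6. Of gene values under all alternatives 4063 kept direction and side of the threshold, 39 lost the call, 9 gained it and 12 reversed. Foxp3 (adjusted p = 0.144), Ctla4 (0.135), Lef1, Bach2, Ccr7, Tgfbr1, Tgfbr2, Hif1a, Eef2, Eef1a1 and Dld lost the call in edgeR's test against 1.5-fold, and Csf1r (0.304), Vcam1 and Mrc1 with voom. Without both libraries with Xist Foxp3, Tcf7, Lef1, Pecam1 and Col1a1 lost it, and the low Kit and Epor lost it under several alternatives. The genes that reversed were not called in the fit used for the text. Tnfrsf18 was 0.0075 with voom and ranged from -0.31 to 0.090 with a library left out, and Tet2 from -0.082 to 0.23 (-0.072 without nTreg replicate 1). With the GC and length correction Tet2 passed the threshold (0.49, adjusted p = 0.021 by edgeR). Syvn1 ranged from -0.24 to 0.14 with a library left out (0.068 without nTreg replicate 2, 0.047 without iTreg replicate 2), and was 0.014 without both libraries with Xist, 0.0028 when thinned and 0.20 with the GC and length correction. Epcam was -0.010 with the 6-library replicate block and ranged from -0.013 to 0.83 with a library left out. List medians reversed 23 times. That of chromatin regulators was -0.0079 with RLE, -0.012 without a filter, -0.0078 with DESeq2, -0.0037 with 6 libraries and -0.0047 with their replicate block; that of autophagy genes was -0.0037 with RLE, -0.0083 without a filter, -0.0030 with DESeq2 and -0.0051 with the 6-library replicate block. The suppressive list was at -0.057 with the stricter filter, -0.075 without both libraries with Xist and -0.0017 to 0.25 with a library left out. With the stricter filter NK cell markers were at 0.67 and gamma delta markers at 0.45. CD8 markers were at -0.79 with 6 libraries, -0.81 with their replicate block and -0.81 when thinned, and erythroid markers at 0.071 when thinned. The IL-2 list ranged from -0.031 to 0.021 and was 0.13 with the GC and length correction, which put the TNF family at -0.036. Cytotoxic genes ranged from -0.090 to 0.47 and were at -0.048 without both libraries with Xist. The cause of these reversals was not tested. Thinned to the smallest total, 7498 of 11647 genes were called.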
